A study of Mus musculus with 947 samples.

Results

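The hearts of the parabiosis cohort were examined, which are 30 small RNA libraries of 947 in the series and of 176 in that cohort. They were chosen by tissue alone, as every heart library of the joined mice, and each came from a different male mouse of 15 surgically joined pairs. In parabiosis the flanks of a pair are sutured so that both mice share a circulation, here for 5 weeks. Isochronic young (IY) mice were aged 3 months (4 mice) or 4.5 months (4 mice), and were joined to a mouse of the same age. Heterochronic young (HY) mice were 4 months old, carried a GFP transgene, and were joined to an aged mouse. The aged mice were 19 months old and were joined to an HY mouse (heterochronic aged, HA) or to each other (isochronic aged, IA). The sources used here conflict on the substrain of the IY and aged mice: the listing by sample has C57BL/6J, and C57BL/6JN for the aged mice of pairs 19 and 20, while the summary of animals has these names exchanged. There were 8 IY, 7 HY, 7 HA and 8 IA hearts, the isochronic groups holding both mice of 4 pairs each, so that 2 libraries of one isochronic pair share a blood supply and may not be independent. Since all HY mice and no other mice carried GFP, the transgene and the old partner cannot be told apart in any comparison of HY. Every HA mouse and no IA mouse had a partner with GFP. A young partner and a partner with the transgene can therefore not be told apart in HA against IA either. HA against IA asks what a young partner changes in an aged heart, HY against IY what an aged partner changes in a young one, IA against IY how age differs between mice joined to their like, and HA against HY how the 2 mice of a mixed pair differ.

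MicroRNAs (miRNAs) are short RNAs that pair with messenger RNAs through the seed, bases 2 to 8, and lower their output. Heart muscle is rich in miR-1a-3p and miR-133a-3p, and its myosin heavy chain genes carry miRNAs in their introns, with miR-208a in Myh6, miR-208b in Myh7 and miR-499 in Myh7b. In rodents Myh6 dominates in the adult heart, and Myh7 with miR-208b is the form of the fetal and the stressed heart. The other libraries' content is fragments of longer noncoding RNAs (tRNA, rRNA, snRNA, snoRNA and lncRNA), which can come from RNA processing or from breakdown.

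The mature sequences of the miRNAs on which the results turn are given with the seed in capitals, from RefSeq (GRCm38.p6). The first 3 are the miRNAs of the myosin genes, at chr14:54949072-54949093 (minus strand), chr14:54975710-54975731 (minus) and chr2:155622893-155622913 (plus). Of these, miR-208a-3p and miR-208b-3p shared a seed, and miR-499-5p had one of its own. The next 2 stand for the let-7 family, whose 9 tested members all had the seed GAGGUAG, with let-7b-5p at chr15:85707325-85707346 (plus). The last 2 are miR-541-5p of the Dlk1-Dio3 cluster, at chr12:109742422-109742446 (plus), and miR-1895, at chr3:134240515-134240536 (minus).
miR-208a-3p: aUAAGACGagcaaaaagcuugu
miR-208b-3p: aUAAGACGaacaaaagguuugu
miR-499-5p: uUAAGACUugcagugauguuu
let-7b-5p: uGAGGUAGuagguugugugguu
let-7i-5p: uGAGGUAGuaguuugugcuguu
miR-541-5p: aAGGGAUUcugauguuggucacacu
miR-1895: cCCCCGAGgaggacgaggagga

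Levels are in reads per 1000000 mapped reads (rpmm), and depth ran from 10.8 to 34.7 M mapped reads with a median of 19.6 M. Heart identity held in all 30 libraries, where miR-1a-3p was at 49448 rpmm or more and miR-208a-3p at 6818 or more, while miR-206-3p, a miRNA of skeletal muscle, did not exceed 3.30. The HA hearts of pairs 1, 2 and 14 stood apart on the first principal component of all RNAs (47% of the variance), at 37.2 to 58.2 against 25.7 or less in the other 27. In these 3 libraries miR-1a-3p was between 49448 and 51603 rpmm, against 91116 or more in the other 4 HA hearts. In the same 3, miR-150-5p, a miRNA of lymphocytes, was between 1061 and 1601. Reads of rRNA were at 32.6% or more in HA of pairs 1 and 2, against 24.5% or less in the other 27 hearts. HA of pair 14 was at 23.96%, and was the shallowest library (10.8 M mapped reads). Reads of lncRNA were at 12.9 to 15.2% in the 3, against 14.6% or more in the other 27. The part of read content and depth in setting these 3 hearts apart was not tested. Of 7 red blood cell miRNAs none passed the test in any comparison, and miR-451a ran from 478 to 2551 rpmm. The liver miRNA miR-122-5p was at 43.1 to 147 rpmm in sequencing pool 8 and at 21.9 or less in the other pools, except for 81.8 in the HY heart of pair 12. Pool 8 held 5 of the 8 IY, 2 of the 8 IA, and 1 HA and 1 HY heart. Pool 6 held 1 HA and 1 HY heart and pool 12 held 2 HA and 1 HY, with no IA or IY heart in either. Of the HA hearts that stood apart, that of pair 1 was in pool 6, that of pair 2 in pool 12 and that of pair 14 in pool 7. For the hearts of pools 6 and 12 the pool and the group can therefore not be told apart in HA against IA. Counts of calls are given also without the 3 HA hearts, within pool 7 and with the pool as a covariate. A reading from bulk tissue cannot tell fewer cells of a type from less RNA per cell.

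**Figure D1:**
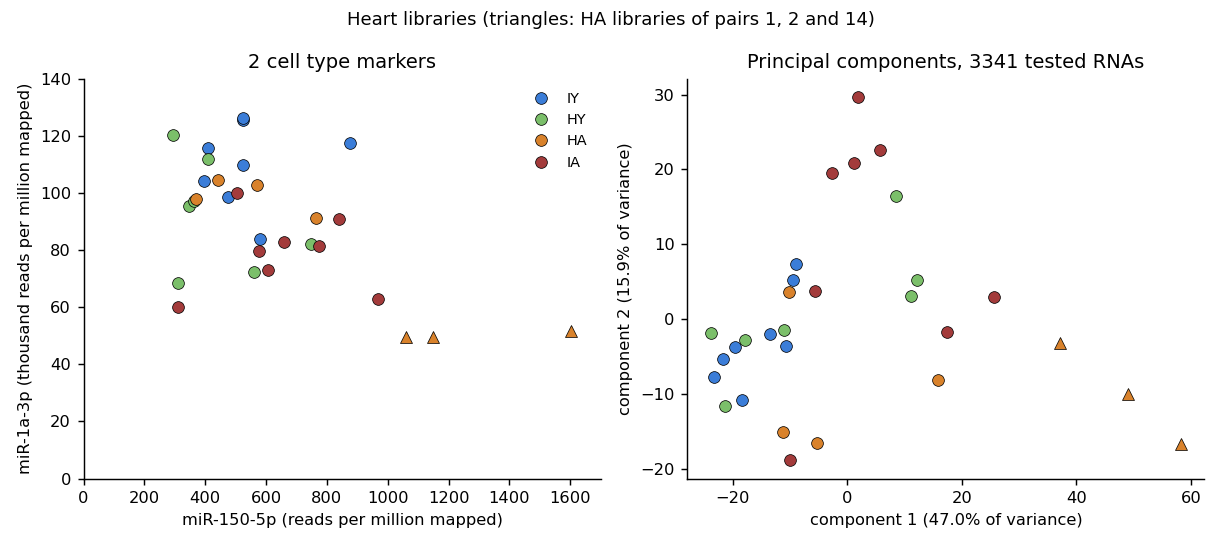
Left, level of miR-1a-3p (vertical, in units of 1000 rpmm) against miR-150-5p (horizontal, rpmm), and right, second against first principal component of all tested RNAs (15.9% and 47% of the variance), 1 point per heart coloured by group, with triangles for the HA hearts of pairs 1, 2 and 14. The triangles are low in miR-1a-3p, at 51603 rpmm or less, and lie at 37.2 or more on the first component.

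Of 5248 RNAs measured, the 3341 at 1 rpmm or above in 10% or more of the hearts were tested, 516 of them miRNAs. Differences are in log2(rpmm + 1) with standard errors (SE), from limma with Benjamini-Hochberg adjusted p over the 3341 RNAs, called under 0.05. RNAs singled out by size were taken among the called ones with a mean of at least 5 rpmm over the 30 hearts. Between HA and IA 293 RNAs were called (8.77%), 167 higher in HA (5%) and 126 lower (3.77%). Scaled by the miRNA reads the split was 110 higher and 128 lower, and scaled by the median ratio over all RNAs 105 and 142. Between IA and IY 227 were called (6.79%), 205 higher (6.14%) and 22 lower (0.658%), and between HA and HY 377 (11.3%). No RNA was called between HY and IY (0%).

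The largest rises in HA over IA were of lncRNAs and 1 miRNA that were also higher in HA than in HY, while none of them passed the test between IA and IY or between HY and IY. Both comparisons rest on the same 7 HA hearts. Gm32338, a lncRNA, was at 48.3, 88.0 and 167 rpmm (lowest, median, highest) in IY, at 53.9, 71.6 and 90.7 in HY, at 290, 455 and 1087 in HA, and at 54.1, 166 and 392 in IA. The lowest HA heart was above every HY and every IY heart, and 4 of 7 HA hearts were above every IA heart. HA exceeded IA by 1.85 ± 0.36 (adjusted p = 0.00281) and HY by 2.83 ± 0.37 (adjusted p = 2.65e-06). The miRNA miR-1895 took the same course at lower levels, at 3.62, 5.61 and 13.2 rpmm in IY, 3.39, 4.38 and 7.40 in HY, 21.5, 34.8 and 86.5 in HA, and 3.82, 12.4 and 28.1 in IA. Its difference was 1.78 ± 0.35 between HA and IA (adjusted p = 0.00281) and 2.78 ± 0.36 between HA and HY (adjusted p = 2.65e-06), where no HA heart overlapped HY (as for 10 of 516 miRNAs, 1.94%). Between HA and IA a single RNA of all tested had groups without overlap (0.0299%). The lncRNAs Gm9866, Gm6117, 2900052N01Rik, 5430401H09Rik and Gm33195 were the others named by size, with HA minus IA between 1.49 and 1.63 and HA minus HY between 1.76 and 2.39, all called. All 7 RNAs stayed called in HA against IA whichever single library was left out, and with the pool as a covariate.

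These RNAs have a sequence feature in common. Over the 30 hearts 23 tested RNAs of 19 genes had a correlation above 0.9 with miR-1895, and all 23 transcripts shared a repeat of GAG up to 16 bases long on one strand or the other. A stretch of 14 bases of it, GAGGAGGAGGAGGA, searched on both strands in the transcript sequences of GENCODE release 21 (GRCm38), was in 42 of 2495 tested transcripts (1.68%), from 36 genes, on the transcribed strand in 31 of them. Shown for Gm32338 (gene at chr10:41103004-41138196) are bases 401 to 430 of its 874-base transcript, with the motif in capitals:
Gm32338: aggaggaaGAGGAGGAGGAGGAggaggagg
With 1 mismatch allowed, as in the mapping, each of the 23 shared a run of 16 or 17 bases with the 22 bases of miR-1895, so that a fragment of such a repeat can be assigned to several of these RNAs and their levels may not be separate measurements. The motif was chosen from these 23 after the levels had been seen, so that their holding it is no test, and its counts are a description. Of the 42 transcripts 28 were higher in HA than in IA and none lower, where 5% of all RNAs were higher (median difference 1.14, against 0.10 over all 3341 RNAs), and 28 were higher in HA than in HY, where 8.71% of all were (median 1.66, against 0.22). Their medians were 0.33 for IA minus IY and -0.16 for HY minus IY, with none called. Without the 3 HA hearts that stood apart the medians were 0.73 (HA minus IA, none called) and 1.21 (HA minus HY, 23 called), and for miR-1895 alone 1.28 (adjusted p = 0.149) and 2.28 (adjusted p = 0.00076). In pool 7 alone 19 of the 42 were called between HA and HY.

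**Figure D2:**
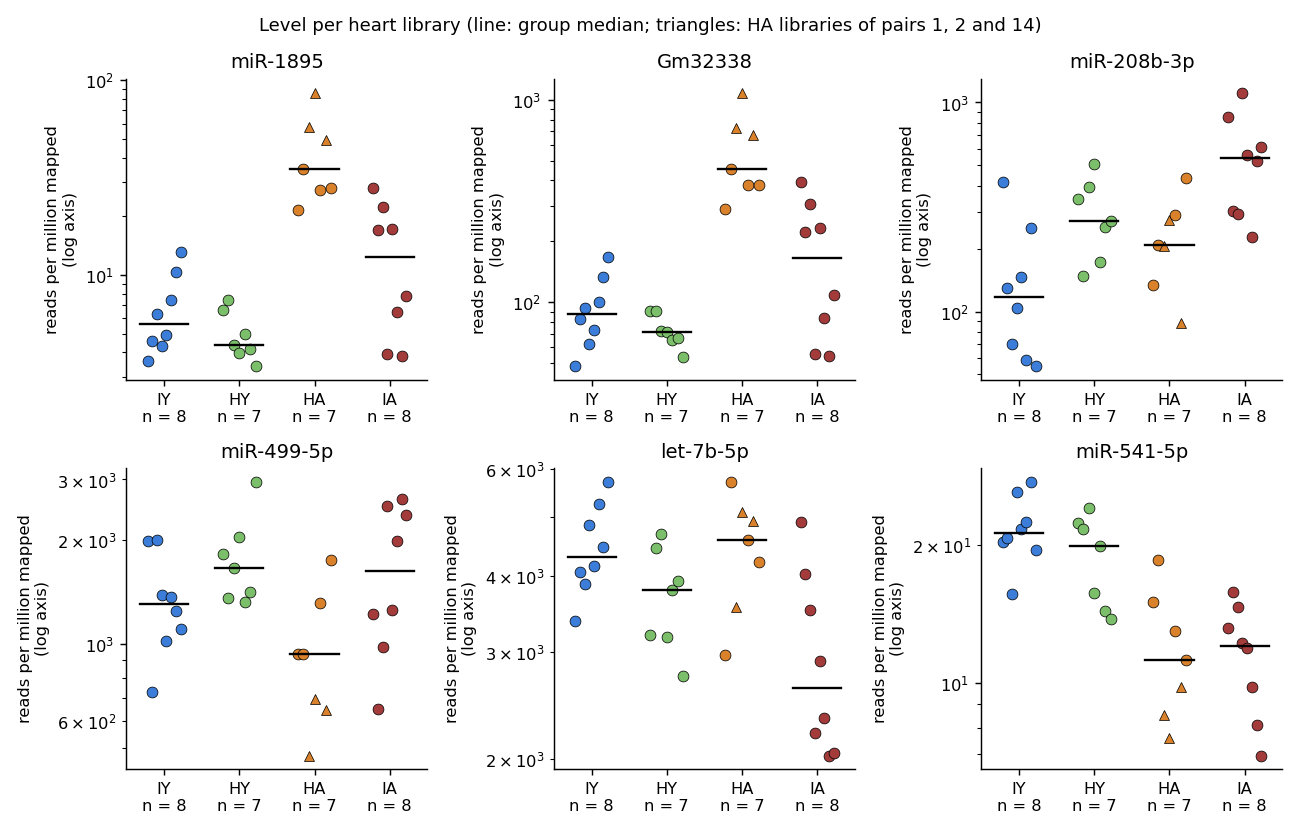
Level in each heart (rpmm, log scale) of miR-1895, Gm32338, miR-208b-3p, miR-499-5p, let-7b-5p and miR-541-5p by group, with lines at the group medians and triangles for the HA hearts of pairs 1, 2 and 14. For miR-1895 the HA hearts lie at 21.5 rpmm or more and all HY hearts at 7.40 or less, and for miR-208b-3p the highest median is that of IA, 543 rpmm.

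Among the RNAs that were lower in HA than in IA, miR-208b-3p had the largest difference. The same IA hearts enter its comparison with IY further on. It was at 54.7, 117 and 418 rpmm in IY, 148, 271 and 510 in HY, 88.0, 209 and 433 in HA, and 228, 543 and 1115 in IA. The ranges of HA and IA overlapped, with HA lower by -1.23 ± 0.40 (adjusted p = 0.0478), a call kept in 12 of the 30 fits that left out a library and lost with the pair as a block (adjusted p = 0.0925) and without the 3 HA hearts (-1.02, adjusted p = 0.259). The 5 others named by size were fragments of nuclear RNAs, the small nucleolar RNAs (snoRNAs) Gm26397 (-0.96), Snora34 (-0.90), Snora2b (-0.85) and Gm24208 (-0.84), a class that guides base modification, and the small nuclear RNA (snRNA) Gm25781 (-0.89). Gm25781 for example was at 123, 186 and 301 rpmm in HA against 164, 342 and 567 in IA, with the IY and HY hearts between 161 and 395. With the pool as a covariate none of these 6 was called (adjusted p from 0.0784 to 0.178).

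By class, lncRNAs were mostly called higher in HA and snRNAs lower. Of 1259 lncRNAs 141 were higher (11.2%, against 5% of all RNAs) and 2 lower, and of 627 snRNAs 1 was higher and 96 lower (15.3%, against 3.77%). Of 520 snoRNAs 6 were higher and 24 lower (4.62%, near the share of all RNAs), and of 516 miRNAs 15 were higher (2.91%) and 4 lower (3.68% called in either direction). All 96 lower snRNAs were among 401 tested copies alike to U6, an RNA of the spliceosome, whose copies share reads, so that they may stand for few measurements. The lower calls of all classes, 126 here, numbered 2 with the pool as a covariate. They numbered 5 without HA of pair 1, 3 without HA of pair 2, 4 without IA 6B and 4 without IA 7B. Higher calls in these fits numbered 27, 86, 95, 96 and 93, against 167 here. Among miRNA groups, 2 of 12 tested members of the growth-promoting miR-17-92 cluster and its relative miR-106b-25 were higher, miR-17-5p among them (HA minus IA 0.57 ± 0.18, adjusted p = 0.042). The inflammatory miR-155-5p was higher by 0.48 (1 of 5 inflammation miRNAs), the neutrophil miRNA miR-223-5p by 0.49 (1 of 6 white blood cell miRNAs), let-7b-5p by 0.61 (1 of 9 let-7 members), miR-29b-2-5p by 0.54 (1 of 7) and the epithelial miR-200c-3p by 0.73 (1 of 15 miRNAs of other organs). Of 39 tested miRNAs of the Dlk1-Dio3 cluster, described further on, 2 were lower in HA and none higher (median -0.16), miR-434-3p among them (-0.69 ± 0.20, adjusted p = 0.0276). With the pool as a covariate miR-223-5p stayed called (adjusted p = 0.0426), while miR-17-5p, miR-155-5p, let-7b-5p, miR-29b-2-5p, miR-200c-3p and miR-434-3p did not (0.0784 to 0.0981). Under the median ratio miR-434-3p stayed called (0.0169) and the other 6 did not (0.0549 to 0.161), and with the pair as a random block miR-29b-2-5p, miR-155-5p, miR-17-5p and miR-434-3p did not (0.0605 to 0.0904). Of the heart and skeletal muscle miRNAs 1 of 12 was called, miR-208b-3p, and of the vessel, fibroblast, red blood cell, heart growth and miR-30 lists none (0 of 6, 6, 7, 10 and 7).

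The HA and IA calls rested on few libraries. No RNA was called without the 3 HA hearts (599 at an unadjusted p under 0.05), in pool 7 alone (418), or in a fit of only these 2 groups (631), 29 were called with the pool as a covariate, and edgeR on the recovered reads called 292. Leaving out 1 heart gave 91 calls (HA of pair 1), 98 (HA of pair 2), 97 (IA 7B), 100 (IA 6B), 449 (IA 7A), 508 (IA 19A), 605 (IA 6A) and 753 (HA of pair 11).

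**Figure D3:**
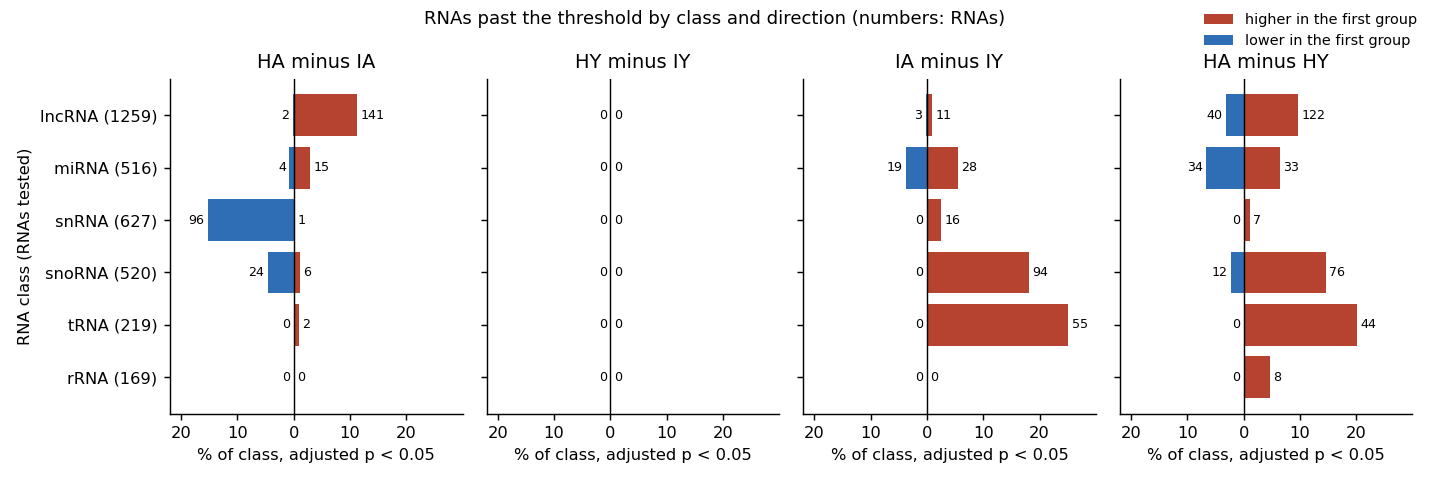
Percent of each RNA class called higher (bars to the right) and lower (bars to the left) in the first group of each of the 4 comparisons, with the number of RNAs at the bar ends and the number tested beside the class. The lower snRNAs are seen in HA against IA (96 RNAs) and the higher tRNA fragments in IA against IY (55) and HA against HY (44).

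In young hearts an aged partner changed no RNA past the threshold. By limma 103 RNAs had an unadjusted p under 0.05 and none an adjusted p under 0.05, edgeR on the recovered reads also called none, and no left-out library changed that. A ratio of group means past 3/2 or 2/3 with an unadjusted p under 0.05 was met by 62. Among RNAs with a mean of at least 5 rpmm the lowest p for higher levels in HY went to 2 miRNAs with a shared seed, UCCCUUU, and to miR-208b-3p. miR-211-5p was at 8.04, 12.6 and 18.2 rpmm in HY against 4.65, 8.47 and 9.69 in IY (0.63 ± 0.19), with 6 of 7 HY hearts above every IY heart. miR-204-5p was at 271, 393 and 500 against 179, 269 and 364 (0.48 ± 0.16), with 4 of 7 above. For miR-208b-3p the difference was 1.18 ± 0.40, and adjusted p was 0.825 for all 3. The lowest p among decreases went to miR-30d-3p (-0.28), miR-26b-5p (-0.32) and miR-125b-2-3p (-0.27), adjusted p again 0.825. The median over all RNAs was 0.11.

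Aged isochronic hearts differed from young ones by higher miR-208b-3p, higher levels of some tRNA fragments and lower let-7. miR-208b-3p was 2.01 ± 0.38 higher in IA (adjusted p = 0.0122), and 5 of the 8 IA hearts were above every IY heart. It was called in each of the 30 fits without a single library. Of all miRNAs 9.11% were called between IA and IY, 5.43% higher in IA. Its relative miR-208a-3p was at 10836 rpmm in the median IY heart and 10785 in the median IA heart (-0.02 ± 0.16, adjusted p = 0.943), and miR-499-5p differed by 0.25 ± 0.28 (adjusted p = 0.536). Among 12 heart and skeletal muscle miRNAs miR-208b-3p was the 1 called.

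Of 219 tRNA fragments 55 were higher in IA and none lower (25.1%, against 6.79% over all RNAs), with a median difference of 0.64. The largest were tRNA-Val-AAC-4-1 (1.11), tRNA-Gly-CCC-2-1 (1.06), tRNA-Val-CAC-3-1 (0.97) and tRNA-Ile-AAT-4-1 (0.96). Of the last, IY hearts held 7.86 rpmm or less and the median IA heart 11.6, and every IA heart was above every IY heart. tRNA-Arg-TCT-1-1 (0.87 ± 0.20, adjusted p = 0.0122) was at 7.15, 8.92 and 13.0 rpmm in IY, 7.78, 12.0 and 20.6 in HY, a median of 17.8 and a highest of 40.5 in HA, and 13.0, 17.9 and 21.7 in IA, again with no overlap of IA and IY. Such separation held for 33 of 219 tRNA fragments and for 56 of all RNAs (1.68%). Also higher were 94 of 520 snoRNAs and 16 of 627 snRNAs (2.55%), none lower (6.14% of all RNAs were higher), and the lncRNA Gm47916 (1.13). RNAs with identical values in every heart weigh on these counts: 377 of the snoRNAs were distinct in their values. With RNAs of identical values counted once 89 RNAs of all classes were called, 76 higher and 13 lower. With the libraries scaled by the median ratio over all RNAs, which brought the median difference of all RNAs, 0.20 here, to within 0.03 of 0 in each comparison, the split of 205 higher and 22 lower became 99 and 82, with 17 tRNA fragments higher, 80 snoRNAs higher and 10 lower, and 5 snRNAs lower. With the pair as a random block tRNA-Val-AAC-4-1 and tRNA-Arg-TCT-1-1 stayed called (adjusted p = 0.0341 for both), while tRNA-Gly-CCC-2-1, tRNA-Val-CAC-3-1, tRNA-Ile-AAT-4-1 and Gm47916 did not (0.0557 to 0.0766), nor did these 4 under the median ratio (0.0537 to 0.0769). The share of reads in each class was compared by exact permutation tests (24 tests in all), of which none passed adjustment. The smallest p went to snRNA, 11.2 ± 2.23% in IA against 8.68 ± 1.27% in IY (SD, n = 8 and 8, exact permutation p = 0.0171, adjusted 0.189), and to miRNA, 30.8 ± 2.23% against 33.9 ± 2.30% (exact permutation p = 0.0185, adjusted 0.189).

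The let-7 family, which holds back cell growth and is abundant in adult tissue, was lower in IA. Of 9 members 7 were called lower, none higher (3.68% of miRNAs were called lower), with a median of -0.58 against 0.20 over all RNAs, and let-7f-5p was 1 of the 2 not called (-0.49, adjusted p = 0.0598). let-7b-5p was at 3373, 4308 and 5719 rpmm in IY and 2023, 2618 and 4917 in IA (-0.63 ± 0.18, adjusted p = 0.0265), and let-7i-5p at 2461, 4492 and 5940 against 1564, 3190 and 3849 (-0.62 ± 0.19, adjusted p = 0.0422). The ranges overlapped for both. Scaling by the miRNA reads left 2 called (median -0.46), the median ratio 9 (-0.87) and the pool as a covariate 1 (-0.46). With the pair as a random block let-7a-5p (adjusted p = 0.0465) and let-7g-5p (0.0368) stayed called and the other 5 did not (0.0591 to 0.0952). In HY against IY all 9 members had negative differences (median -0.26, none called, and -0.02 in pool 7 alone), and in HA against IA 8 of 9 had positive ones (median 0.32).

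Other decreases in IA were of miR-541-5p (-0.88 ± 0.18, adjusted p = 0.0122), miR-376c-3p (-0.67), 4930470O06Rik (-0.70) and miR-185-5p (-0.62). With the pair as a random block miR-541-5p stayed called (adjusted p = 0.0341) and the other 3 did not (0.0664 to 0.0913), and miR-185-5p was lost also with the pool as a covariate (0.104). miR-541-5p, of the imprinted Dlk1-Dio3 cluster whose maternal copy makes a large group of miRNAs and the lncRNA Rian, was at 15.6, 21.3 and 27.5 rpmm in IY and 6.94, 12.1 and 15.8 in IA. It was also lower in HA than in HY (-0.64, adjusted p = 0.0309). Of 39 tested miRNAs of the cluster 5 were lower in IA and none higher (median -0.19). Higher in IA were miR-29b-3p (0.56 ± 0.14, adjusted p = 0.0126) and miR-29c-5p (0.51), 2 of 7 members of the miR-29 family, which restrains collagen and matrix genes. The family's median, 0.21, became -0.03 under the median ratio. The leukocyte miRNA miR-142a-3p was higher by 0.77 ± 0.19 (adjusted p = 0.0128, 1 of 6 white blood cell miRNAs), the fibroblast miRNA miR-214-3p by 0.78 (1 of 2 called of 6 in that list), and miR-24-3p by 0.62 (1 of 10 heart growth and stress miRNAs). Of the 6 fibroblast miRNAs 4 had positive differences, the lowest difference being -0.26. Their summed level was lower in the median IA heart (6714 rpmm) than in the median IY heart (8054). miR-21a-5p missed the threshold (0.67, adjusted p = 0.051). miR-30e-3p was lower by -0.52 (1 of 7 miR-30 members), miR-203-3p higher by 0.39 (1 of 15 miRNAs of other organs), and of the vessel, red blood cell, inflammation and miR-17-92 lists none was called. With the pair as a random block miR-29b-3p (adjusted p = 0.0341) and miR-142a-3p (0.0466) stayed called, while miR-29c-5p, miR-214-3p, miR-24-3p, miR-203-3p and miR-30e-3p did not (0.0591 to 0.0927). With the pool as a covariate the first 4 of these 5 were lost as well (0.0752 to 0.115). Under the median ratio 6 of these were not called, with miR-29b-3p at 0.27, miR-29c-5p at 0.22, miR-142a-3p at 0.48, miR-214-3p at 0.50, miR-24-3p at 0.33 and miR-203-3p at 0.11.

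The number called between IA and IY fell to 111 with the pair as a random block and to 0 with the 2 mice of a pair averaged (379 at an unadjusted p under 0.05), in pool 7 alone (619) or against the 4.5-month IY hearts only, was 176 with the pool as a covariate, and rose to 364 with edgeR. Leaving out 1 heart gave 125 (IY 16B), 127 (IY 15B), 135 (IA 9B), 142 (IA 7B), 146 (IY 17B), 151 (IY 17A), 394 (IY 10A) and 758 (IA 19A).

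**Figure D4:**
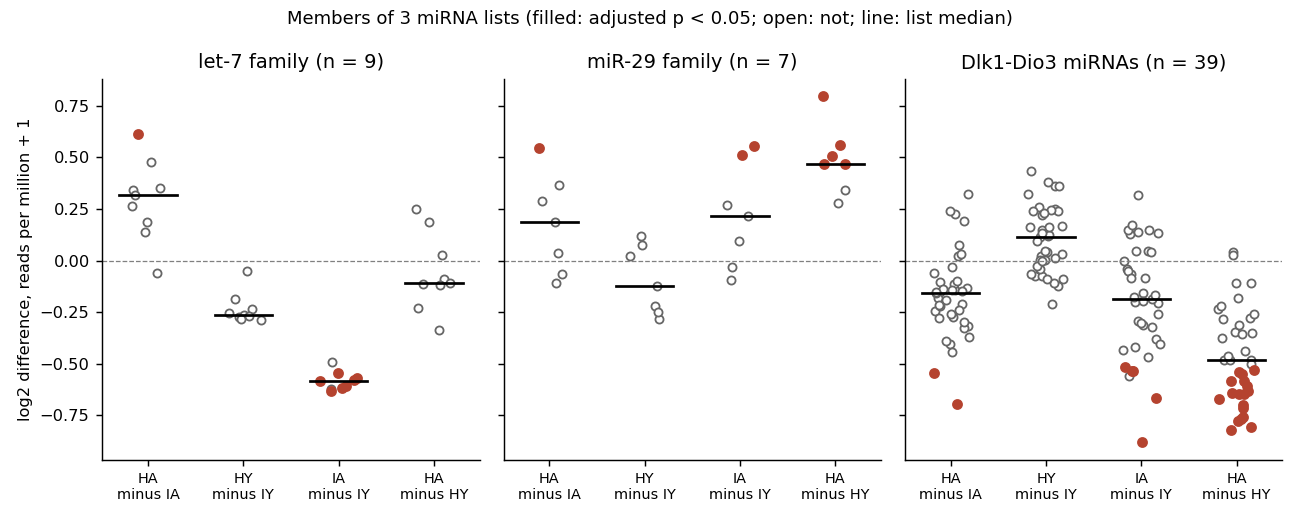
Log2 difference of each member of the let-7 family (n = 9), the miR-29 family (n = 7) and the Dlk1-Dio3 miRNAs (n = 39) in the 4 comparisons, filled where the adjusted p is under 0.05, with lines at the list medians. The let-7 members lie between -0.63 and -0.49 in IA minus IY, and the miR-29 members between 0.28 and 0.80 in HA minus HY.

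HA and HY hearts, of mice that shared blood for 5 weeks, differed in 377 RNAs, 291 higher in HA (8.71%) and 86 lower (2.57%). The rises were led by the GAGGAG-repeat RNAs above, which are 24 of the 58 RNAs (1.74%) whose HA and HY levels did not overlap. Since the repeat was chosen from levels in the same hearts, that count is a description. Of all miRNAs 13% were called, 6.4% higher in HA. Of the miR-29 family 5 of 7 members were higher (median 0.47), among them miR-29a-3p at 10101, 12580 and 16047 rpmm in HA against 7523, 8781 and 11926 in HY (0.50 ± 0.14, adjusted p = 0.0271) and miR-29b-2-5p (0.80 ± 0.18, adjusted p = 0.0095), while miR-29c-3p was not called (0.34, adjusted p = 0.13). Without the 3 HA hearts 1 was called (median 0.55), and under the median ratio none (median 0.25). Higher in HA were also 44 of 219 tRNA fragments (20.1%), 76 of 520 snoRNAs (14.6%, 12 lower), 122 of 1259 lncRNAs (9.69%, 40 lower) and 8 of 169 rRNA fragments (4.73%). tRNA-Arg-TCT-1-1 (0.83) and tRNA-Arg-ACG-1-1 (1.04) were examples. Without the 3 HA hearts no tRNA fragment and no snoRNA was called, and 28 lncRNAs were higher. Under the median ratio the split of all calls was 50 higher and 107 lower, with 6 snoRNAs higher and 23 lower and 6 tRNA fragments higher.

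Lower in HA were miR-499-5p and miR-499-3p, both from Myh7b, and the Dlk1-Dio3 cluster. miR-499-5p was at 476, 938 and 1755 rpmm in HA against 1326, 1660 and 2949 in HY (-0.96 ± 0.30, adjusted p = 0.0339) and miR-499-3p differed by -0.77 (adjusted p = 0.0412). Both differences were smaller without the 3 HA hearts, at -0.54 (adjusted p = 0.684) and -0.36, the lowest HA heart of both being that of pair 14, and miR-499-3p was lost also with the pool as a covariate (adjusted p = 0.0537). Of 39 Dlk1-Dio3 miRNAs 18 were lower and none higher (6.59% of miRNAs were called lower), with a median of -0.48. miR-376a-3p (-0.76 ± 0.18, adjusted p = 0.0133) was at 12.6, 22.2 and 28.1 rpmm in HA and 19.9, 39.1 and 47.4 in HY, miR-377-3p differed by -0.77 and Rian by -0.96. Without the 3 HA hearts the median of the cluster was -0.40 with none called. miR-335-5p, of the imprinted Mest gene, was lower by -0.89 (adjusted p = 0.0158), as were miR-204-5p (-0.69, adjusted p = 0.0169) and miR-211-5p (-0.61, adjusted p = 0.0447). Without the 3 HA hearts miR-335-5p differed by -0.57 (adjusted p = 0.299) and Rian by -0.46 (0.454), and 1 RNA of all tested was called lower in HA.

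White blood cell miRNAs were called higher in HA than HY for 2 of 6, miR-150-5p at 370, 765 and 1601 rpmm against 296, 363 and 749 (0.87 ± 0.28, adjusted p = 0.0399, and 0.33 without the 3 HA hearts) and miR-223-5p at 1.98, 2.60 and 3.67 against 1.10, 1.51 and 1.57 (0.57 ± 0.14, adjusted p = 0.0171). Of the 6, 4 had positive differences, with a median of 0.10 and a lowest of -0.28. miR-223-5p, at a mean of 1.81 rpmm, is near the filter, and miR-223-3p of the same precursor, at a mean of 136, was not called. Summed over the list the white blood cell miRNAs were at 953 to 2187 rpmm in HA and 725 to 1460 in HY, and their part in the differences was not tested. Under the median ratio miR-150-5p (0.62) and miR-223-5p (0.41) were not called. Of 15 miRNAs of other organs 4 were higher, among them the epithelial miR-203-3p, without overlap (0.57, adjusted p = 0.00572), miR-200c-3p (0.73) and miR-141-3p (0.91), while the epithelial miR-200a-3p (0.22), miR-200b-3p (0.33), miR-429-3p (0.61) and miR-205-5p (-0.37) were not called. None of the 15 was called under the median ratio or without the 3 HA hearts. Of the other lists 2 of 12 muscle miRNAs were lower, 1 of 6 vessel and 1 of 5 inflammation miRNAs (miR-155-5p, 0.49, and 0.24 with no call under the median ratio) higher, and none called among fibroblast, let-7, miR-30, red blood cell, heart growth and miR-17-92 miRNAs. Of 8 miRNAs that the study named for their course with age in the other cohort 3 were higher and 2 lower, against 2 higher and none lower in HA against IA and 1 lower in IA against IY.

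HA against HY gave 33 calls without the 3 HA hearts, 24 in pool 7 alone, 631 with the pair as a random block, 357 with it as a fixed block and 730 with edgeR. Without 1 heart it gave 86 (HA of pair 2), 112 and 824 (HY and HA of pair 11), 123 (HY 12), 176 and 249 (HA and HY of pair 14), 188 (HA of pair 1), 251 and 593 (HY and HA of pair 20). Age also differs in IA against IY, which has no library in common with HA against HY, though both used the same estimate of the spread. Of the 3341 RNAs 6.79% were called in IA against IY and 11.3% in HA against HY, and 99 RNAs in both. All 99 went in the same direction, and 8 were miRNAs. Most calls were higher in each comparison (205 of 227 and 291 of 377), which favours a shared direction, and RNAs with identical values were each counted. miR-135b-5p was at 0.18, 0.59 and 0.89 rpmm in IY, 0.40, 0.97 and 1.83 in HY, 1.60, 1.98 and 2.28 in HA and 0.88, 1.68 and 2.38 in IA, higher by 0.71 in IA than IY (adjusted p = 0.0122) and by 0.62 in HA than HY (adjusted p = 0.0169). miR-136-3p of the Dlk1-Dio3 cluster fell in both (-0.53 and -0.64), and the snoRNA Gm22111 rose in both (0.93 and 0.81), as did Gm25874 (0.81 and 0.74) and the 2 arginine tRNA fragments. Without the 3 HA hearts none of these 6 was called between HA and HY (adjusted p from 0.128 to 0.564), and under the median ratio miR-135b-5p, Gm25874 and tRNA-Arg-TCT-1-1 were not (0.0547 to 0.0763).

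Whether the effect of the partner differed between aged and young hearts was tested as HA minus IA less HY minus IY, with 21 RNAs called (0.629%), 19 positive and 2 negative (0.0599%). Of the 19, 17 were transcripts with the GAGGAG repeat, among them Gm32338 (2.15 ± 0.50), and miR-1895 was called beside them (2.10 ± 0.49, adjusted p = 0.0405 for both). As the repeat was chosen from levels in the same hearts and its transcripts can share reads, the 17 are a description. Another named RNA among the 21 is miR-208b-3p at -2.41 ± 0.56 (adjusted p = 0.0405). Its difference was -1.23 in HA minus IA (adjusted p = 0.0478) and 1.18 in HY minus IY, where it was not called (adjusted p = 0.825). Both miR-208b-3p and miR-1895 kept the call in 11 of 30 fits without a library, and the count was 262 without HA of pair 11, 285 without IA 19A, 69 without IY 15B, 36 without IA 6A, 78 without IA 7A and 0 without any one of 19 others. With the pair as a block it was 70, with the pool as a covariate 0 and by edgeR 0.

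The same contrasts in other tissues of the same mice show which changes were larger in the heart. In 30 limb muscle libraries miR-1895 differed by 0.05 between HA and IA, and the heart difference was larger by 1.73 (adjusted p = 0.031). Of the 41 repeat transcripts measured in both tissues 17 had a larger HA minus IA difference in heart (medians 1.15 and 0.07), among 21 RNAs called of 2853. The repeat was chosen from levels in these hearts and its transcripts can share reads, so that this count is a description and no test of heart against limb muscle. miR-208b-3p went the other way in limb muscle, 1.21 between HA and IA (difference -2.44, adjusted p = 0.031) and -0.22 between IA and IY (difference 2.23, adjusted p = 0.013). The Dlk1-Dio3 miRNAs fell with age in limb muscle, all 38 in both tissues being called lower there in IA (median -1.22), against a median of -0.19 in heart, and the difference between tissues was called for 24 of 38, where 4.56% of 2853 RNAs were called. Largest among those named were miR-434-3p (0.32 in heart, -2.41 in limb muscle), miR-127-3p (-0.20 and -2.22) and miR-136-3p (-0.53 and -2.48). Against liver no RNA was called in either contrast by limma (395 and 217 at an unadjusted p under 0.05), and for miR-1895 the liver difference between HA and IA was -0.03.

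**Figure D5:**
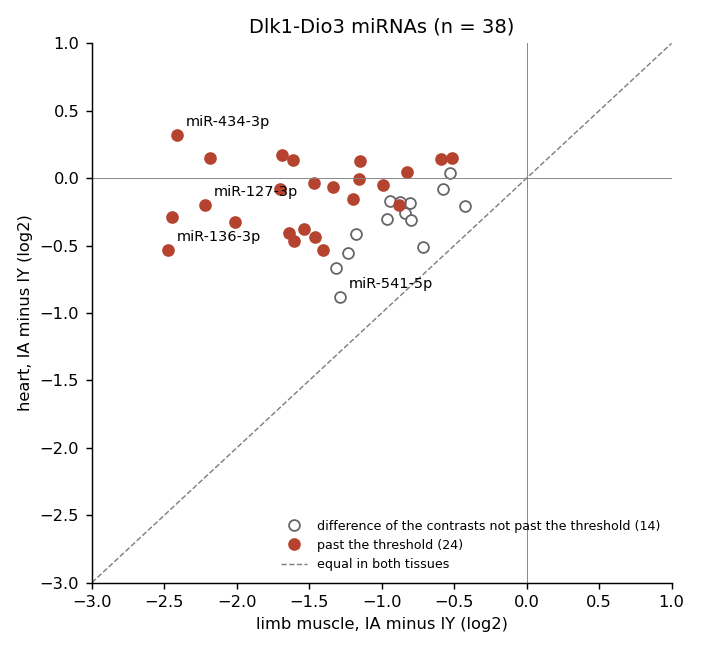
IA minus IY (log2) of 38 Dlk1-Dio3 miRNAs in heart (vertical) against limb muscle (horizontal), 1 point per miRNA, filled where the difference between the tissues passes the threshold (24), open where it does not (14), with a dashed line of equality. The limb muscle values are negative for all 38, with a median of -1.22, and the heart values lie nearer to 0.

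In the hearts of unjoined mice of the aging cohort, 6 mice of 21 months against 5 of 3 months with both sexes present, no RNA was called by limma (475 at an unadjusted p under 0.05 of 3465 tested). The largest values among the RNAs above were those of miR-1895, 1.84 ± 0.51 (adjusted p = 0.16), and Gm32338, 1.88 ± 0.54, and 30 of 40 repeat transcripts were positive. All 9 let-7 members were negative (median -0.54) and all 7 miR-29 members positive (median 0.49), with 33 of 36 Dlk1-Dio3 miRNAs negative (median -0.30), none of them called, against a median of 0.11 over the 3272 RNAs tested in both cohorts. miR-208b-3p differed by 1.22 ± 0.43 (adjusted p = 0.23). By class the medians were 0.64 for snRNA, 0.51 for snoRNA and 0.07 for tRNA fragments.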

How the data were processed

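Small RNA of 30 hearts was sequenced as single-end reads from MGIEasy libraries. The authors mapped the reads with Bowtie, allowing 1 mismatch, to the RNA sequences of miRBase, GtRNAdb, RNACentral and Ensembl and kept the first of identical paralogs. The deposited unit is a signal, rpmm, which scales the reads of an RNA to 1000000 mapped ones. One read can be counted under several RNAs, and each library's total therefore exceeds 1000000. The submitters' processing notes name the build mm10. Groups and pairs came from the labels. The comparisons and lists were chosen with earlier results of these data known.

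RNAs at 1 rpmm or above in 10% or more of the 30 hearts were kept (3341 of 5248). limma 3.58.1 (R 4.3.3) was fitted to log2(rpmm + 1) over all 4 groups with a variance trend, and p was Benjamini-Hochberg adjusted with a threshold of 0.05. The pseudocount makes the differences of low RNAs smaller than their fold changes. Differences between tissues were fitted with the mouse as a random block. Single values were compared by exact two-sided permutation tests. Read counts were recovered from the steps of the rpmm values, whole to within 0.05 for 98.9% of miRNA values and 100% of other values up to 1000 reads, and edgeR 4.0.16 was run on them as an alternative. The fit was tested on simulated data. Scalings, filters, pseudocounts, pools, pair blocks and left-out libraries were the other alternatives.

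The RNAs named were the 6 higher and 6 lower with the largest called difference and a mean of at least 5 rpmm in each comparison (with under 3 called, the 3 of smallest p), taking 1 of any copies or RNAs with nearly identical values, by which miR-1895 was passed over for Gm32338, the called members of the lists (miR-1895 among them), and RNAs called in both of 2 comparisons without a shared group. The repeat, and the RNAs alike to miR-1895, were chosen after their values were seen. In the 7 mixed pairs the labels give the partner, and the deviations of partners from their group means correlated between -0.352 and 0.669 (over 0.1 in 4 of 7 pairs). Of 516 tested miRNAs 423 were matched by name to RefSeq sequences. RNA class came from GENCODE transcripts for 2505 RNAs. Columns of other tissues (86 in the parabiosis table, 718 in the aging table) were not used. With no record of separate handling, p measures the spread between these libraries.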

Additional observations from a re-analysis of the deposited data

Results flagged for a closer look

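Single hearts lay far from the rest of their group for 13 of 292 combinations of a named RNA and a group. Chance alone flags about 1 in 20, so that their number is no more than chance gives, and they are listed as values. Their spread over the libraries was not tested. The young isochronic heart 10A held 4 of them, with tRNA-Val-AAC-4-1 at 14.8 rpmm (others 2.23 to 5.81), miR-377-3p at 13.7 (5.07 to 7.94), miR-214-3p at 279 (125 to 177) and miR-141-3p at 13.9 (3.21 to 7.07). In IY 15A tRNA-Ile-AAT-4-1 was at 7.86 (4.64 to 6.07) and miR-150-5p at 877 (396 to 581), and in IY 17A miR-376c-3p was at 18.8 (8.32 to 13.2). The HY heart of pair 5 had Snora34 at 43.9 rpmm (16.3 to 24.8) and Snora2b at 30.1 (13.8 to 18.2), and that of pair 2 had the lowest miR-223-5p, 1.10 (1.40 to 1.57). In HA the heart of pair 12 had let-7g-5p at 6978 (3988 to 5264). In IA miR-185-5p was at 735 in 19A (270 to 472) and miR-203-3p at 62.0 in 6A (39.1 to 47.8).

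The effect of the partner differed between aged and young hearts by the interaction test for Gm32338 (2.15), miR-1895 (2.10), 5430401H09Rik (1.90), 2900052N01Rik (1.89), Gm9866 (1.81) and miR-208b-3p (-2.41), in log2.

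Between heart and limb muscle of the same mice, HA minus IA differed for Gm32338 (1.76), miR-1895 (1.73), 2900052N01Rik (1.52), Gm9866 (1.5) and miR-208b-3p (-2.44). IA minus IY was higher in heart by 2.73 for miR-434-3p, 2.23 for miR-208b-3p, 2.02 for miR-127-3p, 1.94 for miR-136-3p, 1.32 for miR-214-3p, 1.15 for miR-377-3p, 1.12 for tRNA-Arg-TCT-1-1, 0.94 for miR-376a-3p, 0.91 for miR-135b-5p and 0.88 for miR-24-3p, and it was lower for miR-185-5p (-0.99).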

How the results depend on the processing

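Leaving out 1 heart at a time gave 91 to 753 calls for HA against IA, 0 to 0 for HY against IY, 125 to 758 for IA against IY, 86 to 824 for HA against HY, 0 to 285 for the interaction, 0 to 0 for age in the aging cohort and 0 to 2 for the class shares. Pool 7 alone and the omission of the 3 HA hearts were chosen after seeing the data. For HA against IA the count was 2 with only miRNAs tested, 0 in a fit of these 2 groups, 29 with the pool as a covariate, 588 without pairs 19 and 20, 0 in pool 7, 0 without the 3 HA hearts and 691 by the ratio rule, which gave 62 for HY against IY. For IA against IY it was 91 at a mean of at least 10 rpmm, 566 with miRNA scaling, 59 with only miRNAs, 89 with identical RNAs once, 364 by edgeR, 111 with the pair as a random block, 0 with pairs averaged, 852 in a fit of these 2 groups, 945 without pairs 19 and 20, 0 against the 4.5-month and 113 against the 3-month IY hearts, 0 in pool 7, 798 without the 3 HA hearts and 756 by the ratio rule. For HA against HY it was 223 with a pseudocount of 0.1, 137 at a mean of at least 10 rpmm, 240 with miRNA scaling, 157 with the median ratio, 78 with only miRNAs, 730 by edgeR, 631 with the pair as a random block, 239 in a fit of these 2 groups, 24 in pool 7, 33 without the 3 HA hearts and 920 by the ratio rule.

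For the interaction it was 0 with a pseudocount of 0.1, no filter, miRNA scaling, edgeR, pairs averaged, the pool as a covariate, either IY age alone, pool 7 or without the 3 HA hearts, 71 with a pseudocount of 5, 13 at a mean of at least 10 rpmm, 5 with only miRNAs, 70 with the pair as a random block and 299 without pairs 19 and 20. Against limb muscle HA minus IA gave 32 with miRNA scaling, and IA minus IY 235 with miRNA scaling and 63 with the median ratio. Against liver HA minus IA gave 19 with a pseudocount of 5, and IA minus IY 1 with a pseudocount of 5 and 2 with miRNA scaling. The cause of these changes was not tested. Over the named RNAs and their alternatives 3741 values stayed on their side of the threshold, 861 lost a call, 2 gained one and 0 changed direction, while the split of all calls into higher and lower shifted with the scaling, as given above. Counting error is widest for RNAs near the filter in the shallowest heart (10.8 M mapped reads).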
